A study of Homo sapiens with 6 samples.

Results

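Neuropeptides are short signalling peptides that are cut from larger precursor proteins and released from dense core vesicles beside the classical transmitter. Sympathetic neurons are known for neuropeptide Y, which they release together with noradrenaline, and, after axotomy in rodents, for a switch to galanin, VIP and PACAP. The calcitonin gene-related peptides act on blood vessels through a receptor built from CALCRL and RAMP1. The genes described here are 10 neuropeptide precursors: NPY, GAL, VIP, TAC1, SST, ADCYAP1, PENK, CARTPT, NTS and CALCB. They were chosen by name, with earlier results of these data known. All 10 were among the 17687 genes measured, each by 1 probe set.

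The cells were SH-SY5Y, a human neuroblastoma line of sympathetic lineage bought from a culture collection, differentiated with atRA (all-trans retinoic acid) over 96 h. The 3 samples labelled 15EN received the bioactive compound at 15 µM, and the series title names eurycomanone, a quassinoid from Eurycoma longifolia root. The 3 samples labelled VC are vehicle controls. The treatment text is identical for all 6 samples, so the retinoic acid step is read as common to both groups and the 15 µM dose as that of 15EN. Titles and source names give replicates 1, 2 and 3 of both groups passages 33, 34 and 35, whereas the descriptions of all 6 samples name passage 33. Passages below are those of the titles. Separate cultures are not otherwise stated, and p-values reflect the variation among these arrays alone, part of which may be technical.

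Transcripts were measured on 1-colour Affymetrix whole-transcript arrays, and all values below are log2 signals as deposited. The arrays carry 612 negative control probe sets, and a signal is read here against their median (4.75 to 4.86 on the 15EN arrays and 4.97 to 5.06 on the VC arrays) and their 90th percentile (7.41 to 7.51 in 15EN and 7.55 to 7.99 in VC). Signals of different genes come from different probes and were not ranked against each other. 15EN replicate 3 correlated with 15EN replicates 1 and 2 at 0.979 and 0.980 over all probe sets, against 0.992 between those 2. With the VC arrays it correlated at 0.971 to 0.973, against 0.966 to 0.968 for 15EN replicates 1 and 2. Of 12 measured markers of sympathetic noradrenergic neuroblastoma cells, 7 lay above the controls' 90th percentile on all 6 arrays. The markers TH and CHGA lay below it on all 6. Of 7 fibroblast and mesenchymal markers 5 lay above it on all 6 arrays, so these counts do not by themselves tell the cell type.

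Cyclic AMP is a known inducer of several neuropeptide genes, acting through the cAMP response element, whose full form is TGACGTCA. RefSeq promoter entries (GRCh38.p14) matched 7 of the 10 genes, with 8 promoters because ADCYAP1 has 2. GAL, PENK and CALCB had no entry. In the 250 bases before the start, searched on both strands, TGACGTCA was found in SST and CARTPT, against 1.65% of all 35116 promoters, and the 6-base core TGACGT, which is part of TGACGTCA, in SST, CARTPT and VIP (7.1% of all). The AP-1 letters TGANTCA were found in 0 of the 8 (6.57% of all), and TATAAA in SST, CARTPT and VIP (10.7% of all). The sequences below are the last 150 bases before the start, on the gene's strand, shown for the 3 precursors that hold the core, and the capitals mark the core and, in SST and CARTPT, its palindromic extension.
SST, chr3:187670395-187670544, minus strand: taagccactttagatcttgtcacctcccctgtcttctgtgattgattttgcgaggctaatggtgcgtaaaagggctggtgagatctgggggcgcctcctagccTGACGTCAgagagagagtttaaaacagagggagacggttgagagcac
CARTPT, chr5:71719125-71719274, plus strand: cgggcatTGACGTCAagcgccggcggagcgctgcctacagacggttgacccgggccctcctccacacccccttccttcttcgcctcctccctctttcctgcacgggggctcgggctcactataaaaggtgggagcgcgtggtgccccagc
VIP, chr6:152750647-152750796, plus strand: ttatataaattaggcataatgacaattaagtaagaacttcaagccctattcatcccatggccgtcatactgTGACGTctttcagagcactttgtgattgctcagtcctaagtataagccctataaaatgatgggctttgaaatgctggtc

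Of the 10 neuropeptide genes, CALCB was lower in 15EN, GAL was higher, and 8 did not pass the test. The groups were compared with limma over all 17687 genes, with Benjamini-Hochberg adjustment and a threshold of adjusted p 0.05. Of all genes, 21.4% passed, 12.3% higher and 9.09% lower in 15EN. Of 7779 genes that lay below the controls' 90th percentile on all 6 arrays, 4.33% passed (1.99% higher and 2.34% lower), and 9 of the 10 neuropeptide genes were of this kind, NPY being the exception. The median difference of the 10 genes was -0.07, against 0.01 over all genes, with 4 above 0 and 6 below.

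The higher or lower share of calls depends on the scale. Of the genes called in the whole table, 57.5% were higher as deposited, 71.6% when each array was centred on its negative control median, and 96.5% after scaling every array to the same hybridization control level. That last scaling added a constant to every difference and moved the median of all genes to 0.88. On it 7 of the 10 neuropeptide genes were called higher and 1 lower, values to be read against 0.88.

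CALCB encodes the precursor of beta-CGRP, a vasodilator peptide of sensory and enteric neurons. Its signal was 4.17, 3.71 and 3.85 in 15EN replicates 1, 2 and 3, against 6.019, 5.996 and 5.998 in VC replicates 1, 2 and 3. The groups did not overlap, as for 36.3% of all genes (16.6% with 15EN below and 19.7% with 15EN above), and every 15EN array lay below its own negative control median while every VC array lay above it. Within its array CALCB stood at the 22.7 to 30.4 percentile of the negative controls in 15EN and at the 68.8 to 70.6 percentile in VC. It fell by 2.09 ± 0.21 (SE; 3.91 ± 0.23 in 15EN and 6.004 ± 0.013 in VC, SD, n = 3 each; limma adjusted p = 0.000249), with same-passage differences of -1.85, -2.28 and -2.15. Because both levels lie within the range of the negative controls, the size of the fall is uncertain. Centred on the negative control medians the difference was -1.92 (adjusted p = 0.000359), and scaled to the hybridization controls it was -1.23 (0.000917). Its call held without any single array (adjusted p 7.6e-05 to 0.00343). Of the 612 negative control probe sets, 13 (2.12%) were lower in 15EN by at least as much.

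GAL encodes galanin, a peptide that sympathetic and sensory neurons of rodents make in quantity after nerve injury. Its signal was 7.10, 6.76 and 6.75 in 15EN replicates 1, 2 and 3, against 6.10, 6.02 and 6.16 in the VC replicates. The groups did not overlap, as for 19.7% of all genes with 15EN above. All 6 values lay above the negative control median and below the 90th percentile. GAL stood at the 83.3 to 88.2 percentile of the negative controls in 15EN and at the 69.1 to 73.5 percentile in VC. It rose by 0.78 ± 0.21 (6.87 ± 0.20 in 15EN and 6.09 ± 0.07 in VC, SD, n = 3 each; limma adjusted p = 0.022), and all 3 same-passage differences were positive (1.00, 0.74 and 0.60). The difference was 0.96 after centring on the negative controls (adjusted p = 0.0079). The call held without 15EN replicate 2 (adjusted p = 0.0432) or 15EN replicate 3 (0.0105). It was lost without 15EN replicate 1 (0.67, adjusted p = 0.0847), VC replicate 1 (0.79, 0.0684), VC replicate 2 (0.74, 0.0909) or VC replicate 3 (0.81, 0.0642). Of the negative control probe sets, 29 (4.74%) were higher in 15EN by at least as much.

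**Figure D1:**
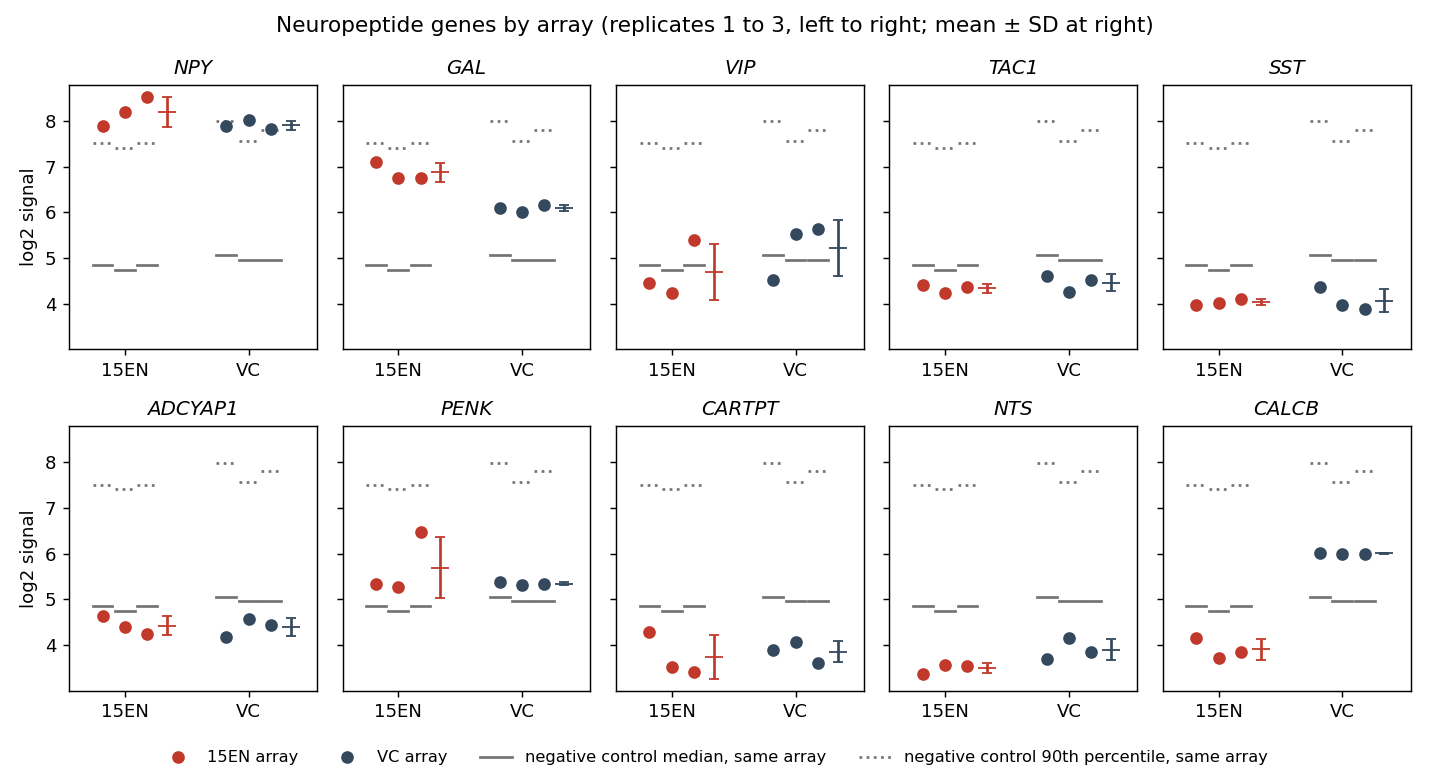
Log2 signal (vertical axis) of each neuropeptide gene on the 15EN arrays (red, left) and the VC arrays (dark, right), replicates 1 to 3 from left to right, with the mean ± SD of 3 arrays at the right of each group. Grey lines are the same array's negative control median (solid) and 90th percentile (dotted); CALCB lies below the median in 15EN and above it in VC, GAL is higher in 15EN between both lines, and NPY is near the dotted line.

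NPY, the cotransmitter of noradrenaline in sympathetic nerves, was the only precursor of the 10 above the negative controls' 90th percentile on all 15EN arrays, and on 5 of the 6 arrays in all. Its signal was 7.88, 8.18 and 8.52 in 15EN replicates 1, 2 and 3, against 7.88, 8.01 and 7.81 in VC, and the groups overlapped. The difference of 0.29 ± 0.23 did not pass (95% confidence interval -0.21 to 0.80; limma adjusted p = 0.433). The same-passage differences were 0.00 at passage 33, 0.18 at passage 34 and 0.71 at passage 35, so that the highest value came from 15EN replicate 3. Without that array the difference was 0.13.

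VIP, vasoactive intestinal peptide, is the cotransmitter of cholinergic sympathetic neurons. Its signal was 4.45, 4.23 and 5.39 in 15EN replicates 1, 2 and 3, against 4.52, 5.52 and 5.63 in VC. The groups overlapped, and in each the arrays spread over more than 1 log2 unit (1.16 in 15EN and 1.12 in VC), on both sides of the negative control median. The difference was -0.53 ± 0.37 (interval -1.35 to 0.28; limma adjusted p = 0.373). It was -0.88 without 15EN replicate 3 (adjusted p = 0.0565) and -0.89 when VC replicate 1 was left out (0.14), but -0.30 when 15EN replicate 2 was (0.698). Of the cholinergic markers, 0 of 6 were called (0 also at an unadjusted p under 0.05), and the summed linear level of that list was 608 to 876 in 15EN and 587 to 640 in VC. ACHE, acetylcholinesterase, differed by 0.41 ± 0.23 and PRIMA1, its membrane anchor, by -0.39 ± 0.27.

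ADCYAP1, the PACAP precursor and a relative of VIP, lay between 4.24 and 4.65 in 15EN and between 4.18 and 4.58 in VC, below the negative control median on all 6 arrays. Its difference was 0.03 ± 0.22 (interval -0.46 to 0.51; limma adjusted p = 0.954). A further 4 precursors were below that median on all 6 arrays as well. TAC1, the substance P and neurokinin A precursor, lay between 4.24 and 4.42 in 15EN and between 4.26 and 4.61 in VC (difference -0.12 ± 0.21). SST, somatostatin, lay between 3.99 and 4.11 in 15EN and between 3.88 and 4.36 in VC (-0.03 ± 0.21). For CARTPT, the CART precursor, the range was 3.41 to 4.29 in 15EN and 3.61 to 4.06 in VC (-0.11 ± 0.27). In TAC1, SST and CARTPT, the last 2 with the cAMP element shown above, the groups overlapped and limma's adjusted p was 0.753, 0.946 and 0.836.

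NTS, neurotensin, was at 3.38, 3.56 and 3.55 in 15EN replicates 1, 2 and 3, against 3.71, 4.15 and 3.85 in VC, also below the negative control median throughout. The groups did not overlap, as for 16.6% of all genes with 15EN below, and the difference of -0.40 ± 0.21 did not pass (interval -0.87 to 0.07; limma adjusted p = 0.228). It was -0.22 after centring on the negative controls.

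PENK, the precursor of the enkephalins, was at 5.34, 5.28 and 6.47 in 15EN replicates 1, 2 and 3, against 5.39, 5.31 and 5.34 in VC. A single array, 15EN replicate 3, stood above the other 5, which lay within 5.28 to 5.39. The difference of 0.35 ± 0.31 did not pass (interval -0.34 to 1.03; limma adjusted p = 0.503) and was -0.04 without that array.

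**Figure D2:**
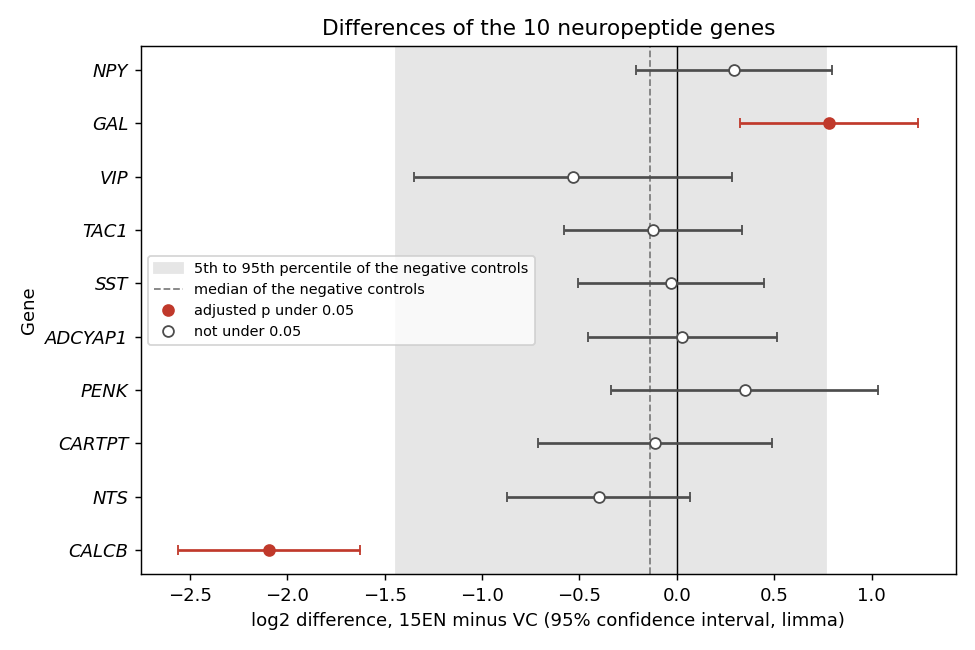
Log2 difference of 15EN minus VC (horizontal axis) for each of the 10 genes, with limma's 95% confidence interval. The grey band runs from the 5th to the 95th percentile of the same difference in 612 negative control probe sets (-1.44 to 0.77), whose median is -0.14 (dashed); CALCB at -2.09 lies left of the band, GAL at 0.78 at its right edge, and the other 8 inside it.

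As a group the negative controls were slightly lower in 15EN, with a median difference of -0.14 and a range of -5.76 to 2.38. Tested together with the genes by limma, 7 of these probe sets were called higher and 34 lower (6.7%). Of the 492 controls below the 90th percentile on all 6 arrays, 4 were called higher and 18 lower (4.47%), against 4.33% of the genes of that kind.

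The receptors of these peptides did not change beyond the threshold. Of 26 receptor genes, 24 were measured and 0 were called by limma in either direction (1 at an unadjusted p under 0.05), against 21.4% of all genes. Only 2 of the receptors lay above the negative controls' 90th percentile on all 6 arrays. Of all genes below that percentile on all 6 arrays, 4.33% passed in either direction. RAMP1, which pairs with CALCRL to form the CGRP receptor, was at 9.40, 9.12 and 9.85 in 15EN replicates 1, 2 and 3, against 8.83, 8.72 and 8.77 in VC. The groups did not overlap, as for 19.7% of all genes with 15EN above, and the difference was 0.68 ± 0.23 (adjusted p = 0.0633). It passed without 15EN replicate 2 (adjusted p = 0.045), after centring on the negative controls (0.0197), without dim genes (0.0478), with array weights (0.0483) and after scaling to the hybridization controls (0.000625). CALCRL itself was dim and differed by 0.00 ± 0.25 (adjusted p = 0.996). The galanin receptor genes GALR1 (-0.01 ± 0.25), GALR2 (0.25 ± 0.21) and GALR3 (0.28 ± 0.25) were likewise dim. SSTR3, a somatostatin receptor, differed by -0.46 ± 0.27 (adjusted p = 0.294).

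Among 43 other measured neuropeptide and peptide hormone genes, 1 was higher and 2 were lower, against 12.3% and 9.09% of all genes. Only 3 of the 43 lay above the negative controls' 90th percentile on all 6 arrays. Of all genes below that percentile on all 6 arrays 4.33% passed in either direction, and of those above it on at least 1 array 34.8%. The 2 of smallest p in the list belong, like CALCB, to the calcitonin peptide family. CALCA, which encodes calcitonin and alpha-CGRP and is the neighbour of CALCB on chromosome 11, was at 7.64, 6.84 and 8.23 in 15EN replicates 1, 2 and 3, against 9.41, 9.51 and 9.04 in VC. It fell by 1.75 ± 0.33 (limma adjusted p = 0.00439), and its call held under all 16 alternatives (-2.08 to -0.88). CALCB and CALCA are close paralogues, and probe sequences were not used here, so signal that their probe sets might share cannot be told apart. ADM, adrenomedullin, which also signals through CALCRL, was higher in 15EN. It was at 11.05, 11.29 and 11.34 in 15EN replicates 1, 2 and 3, against 7.44, 8.81 and 8.52 in VC, and rose by 2.97 ± 0.33 (adjusted p = 0.000343). UCN3, urocortin 3, was lower by a narrow margin (-0.71 ± 0.23, adjusted p = 0.0499). Its call was lost without any 1 array other than 15EN replicate 3 (adjusted p = 0.0558 to 0.182), with a trended robust prior (0.0721), after centring on the negative controls (0.109) and after scaling to the hybridization controls, where it turned to 0.16 (0.558). The list's count of lower genes was accordingly 1 without any of those 5 arrays, but 4 when 15EN replicate 3 was left out.

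The enzymes and granins that make and package neuropeptides had 1 called higher and 3 called lower among 17 measured (2 and 5 with the replicate number as a block). Of all genes 12.3% were called higher and 9.09% lower. SCG2, secretogranin II, was at 8.77, 9.78 and 8.43 in 15EN replicates 1, 2 and 3, against 11.47, 11.70 and 12.17 in VC, and fell by 2.79 ± 0.34 (adjusted p = 0.000518). VGF, a granin-like peptide precursor, was at 11.62, 11.41 and 10.55 in 15EN, against 8.29, 9.34 and 9.64 in VC, and rose by 2.10 ± 0.38 (adjusted p = 0.00355). Neither pair of groups overlapped, as for 36.3% of all genes. CHGA, chromogranin A, fell by 1.25 ± 0.34 (adjusted p = 0.0259), and GNAS, whose locus encodes a G protein subunit and a granin, by 0.88 ± 0.22 (0.0164). CHGA stood at the 61.3 to 85.1 percentile of the negative controls over the 6 arrays, so the size of its fall is uncertain. The call of CHGA did not survive leaving out VC replicate 1, VC replicate 3, 15EN replicate 1 or 15EN replicate 2 (adjusted p = 0.0526 to 0.114), and that of GNAS leaving out VC replicate 1 or VC replicate 3 (0.0607 and 0.0706). Both calls were also lost after scaling to the hybridization controls (CHGA -0.38, adjusted p = 0.334, and GNAS -0.01, 0.969). The list had 1 lower gene when VC replicate 3 was left out, and 2 when 15EN replicate 1 or 15EN replicate 2 was.

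**Figure D3:**
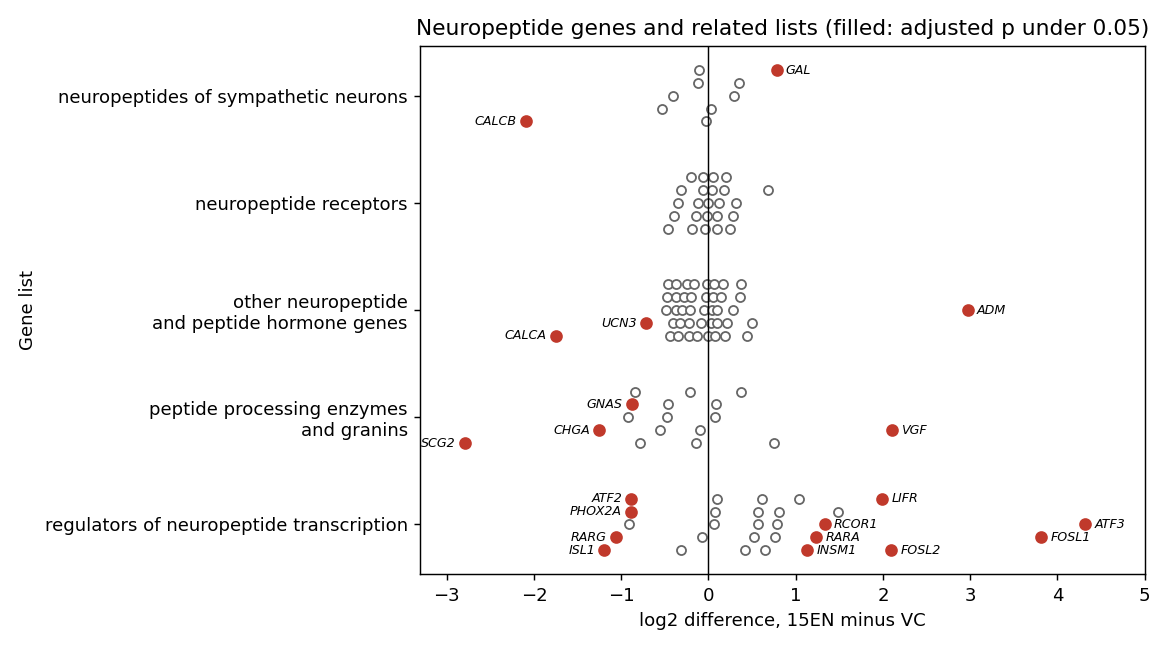
Log2 difference of 15EN minus VC (horizontal axis) for every measured gene of the neuropeptide list and the 4 related lists; vertical offsets within a list only separate points. Filled, named points passed limma's adjusted p 0.05; 2 of 10 neuropeptide genes, 0 of 24 receptors, 3 of 43 other peptide genes, 4 of 17 processing genes and 11 of 28 regulators did.

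Transcription factors and receptors that are known to regulate neuropeptide genes had 7 higher and 4 lower of 28 measured, and 23 of the 28 lay above the negative controls' 90th percentile on all 6 arrays. Of the 9908 genes above that percentile on at least 1 array, 34.8% passed in either direction. The AP-1 subunit genes FOSL1 (3.81 ± 0.42, limma adjusted p = 0.000343) and FOSL2 (2.09 ± 0.36, 0.00289) rose. FOS, FOSB, JUN, JUNB and JUND were not called, and their groups overlapped, with differences from 0.52 (JUND) to 1.49 (JUN). In each of them 15EN replicates 1 and 2 lay above every VC array, and 15EN replicate 3 did not. ATF3, an injury-induced factor of the ATF family, was at 11.38, 11.76 and 9.09 in 15EN replicates 1, 2 and 3, against 6.35, 6.47 and 6.45 in VC, and rose by 4.32 ± 0.56 (adjusted p = 0.000669). LIFR, the receptor for leukaemia inhibitory factor, through which injury raises GAL and VIP in sympathetic neurons of mice, was at 11.72, 12.79 and 12.14 in 15EN, against 9.98, 10.11 and 10.57 in VC. It rose by 1.99 ± 0.29 (adjusted p = 0.00133). IL6ST (-0.08 ± 0.21, adjusted p = 0.858) and STAT3 (0.76 ± 0.26, 0.0612), of the same list, were not called. Also called higher were RCOR1 (1.34 ± 0.26), RARA (1.24 ± 0.28) and INSM1 (1.14 ± 0.34). The 4 lower genes were ISL1 (-1.19 ± 0.26), RARG (-1.06 ± 0.27), PHOX2A (-0.88 ± 0.22) and ATF2 (-0.88 ± 0.24). RARB, like RARA and RARG a retinoic acid receptor gene, differed by 0.65 ± 0.22 and was not called (limma adjusted p = 0.0628). Leaving out 15EN replicate 3 gave 16 higher genes, and leaving out 15EN replicate 1 or any 1 VC array gave 2 lower.

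Levels of cell type markers are given beside these results, and their part in them was not tested. Of 12 noradrenergic markers 0 were higher (0 also at an unadjusted p under 0.05) and 6 lower, against 12.3% higher and 9.09% lower of all genes. Of genes above the negative controls' 90th percentile on at least 1 array, 34.8% passed in either direction. The summed linear level was 52200 to 63230 in 15EN and 98810 to 136300 in VC. A linear sum weighs the largest signals most, here ELAVL4 (15.5 in VC, difference -1.11 ± 0.27) and STMN2 (15.0 in VC). The 6 not called included TH (-0.09 ± 0.21), HAND2 (0.09 ± 0.22) and GATA3 (0.07 ± 0.22). STMN2, a neuronal microtubule regulator, fell by 1.72 ± 0.22 (limma adjusted p = 0.000687) and DBH, which makes noradrenaline, by 1.59 ± 0.23 (0.00112). Of 7 fibroblast and mesenchymal markers 0 were higher (0 also at an unadjusted p under 0.05) and 2 lower. These were COL1A1 (-0.88 ± 0.27, limma adjusted p = 0.0393) and THY1 (-0.79 ± 0.25, 0.0459). The call of COL1A1 was lost under 6 of 16 alternatives. That of THY1 was lost under 5, and its direction turned under 1. The summed level of the list was 22350 to 30350 in 15EN and 22320 to 29100 in VC. Schwann and glial markers lay below the negative controls' 90th percentile on all arrays (0 of 6), were called in 0 cases (0 also at an unadjusted p under 0.05), and summed to 217 to 253 in 15EN and 224 to 257 in VC. Of these CDH19 differed by -0.29 ± 0.22 and ERBB3 by -0.31 ± 0.25. In bulk samples, fewer cells of a type and less RNA per cell cannot be told apart.

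The genes whose signals followed CALCB most closely over the 6 arrays were SEPTIN2, a cytoskeletal GTPase gene (Pearson's r = 0.998, difference -1.07), PGK1, a glycolytic kinase gene (0.997, -1.32), and SLC4A8, a sodium-coupled bicarbonate transporter gene (0.996, -2.97). The 6 arrays form 2 groups of 3 and share 3 passages, and 500 genes had r above 0.95 with CALCB, so these values describe the same split between groups.

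**Figure D4:**
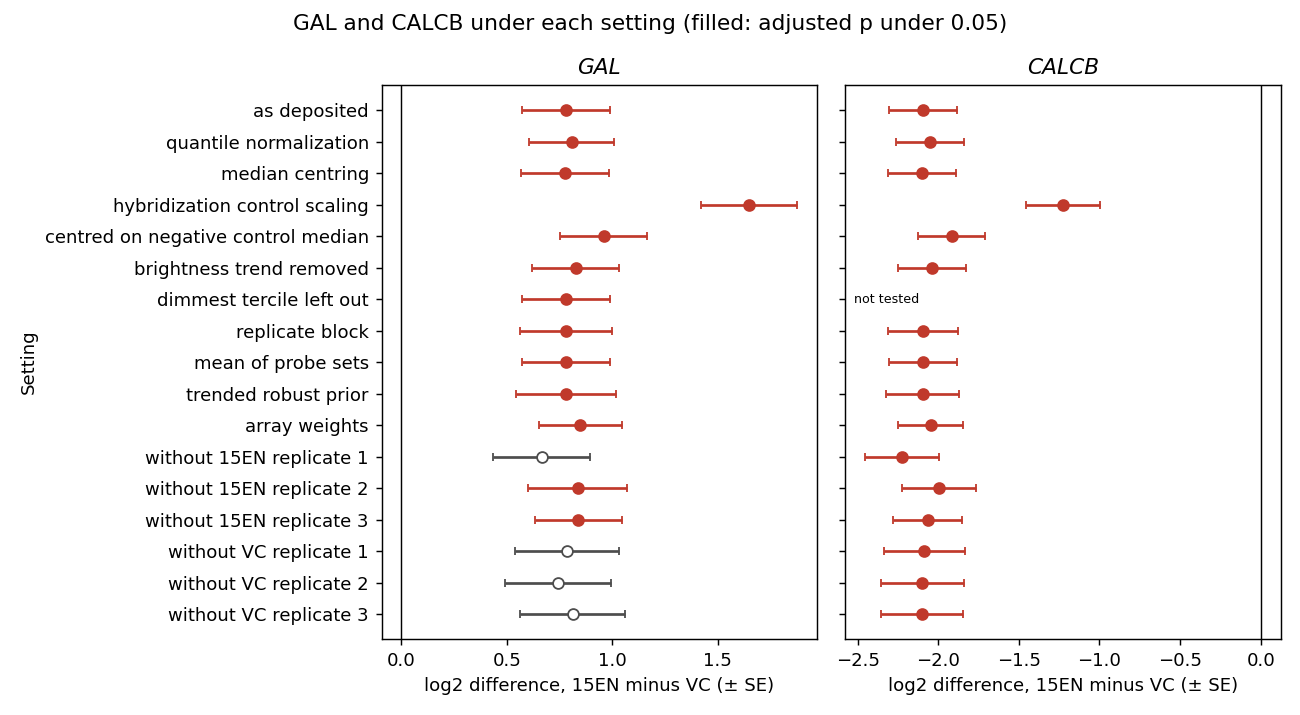
Log2 difference of 15EN minus VC (horizontal axis, ± SE) for GAL (left) and CALCB (right) under each processing setting (vertical axis); filled points passed limma's adjusted p 0.05. CALCB passed in all 15 alternatives that tested it (-2.22 to -1.23), and GAL in 12 of 16, with open points without 15EN replicate 1 or any 1 VC array.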

How the data were processed

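The authors deposited log2 signals for each probe set and array, running from 2.20 to 18.8, the scale being judged from the values. Per the submitters' processing notes the Transcriptome Analysis Console was used. Its version, the summarization and normalization and the build were not given in the sources used here. Biotinylated cDNA was made from 100 ng of total RNA, per the labels' protocols. The number of arrays limits the precision.

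The platform annotation gave a single symbol to 17709 of 24351 probe sets; all matched RefSeq (GRCh38.p14), and the probe set with the highest mean was kept (22 set aside), leaving 17687 genes with no filter on dim signals. The comparison used lmFit and eBayes of limma 3.58.1 (R 4.3.3), with group alone in the model and two-sided tests. The titles tie replicate numbers to passages, so the numbers may pair the samples. Deviations from the group mean correlated at r = 0.229, 0.162 and 0.133 for same-numbered arrays and at -0.138 to -0.0165 for others. Such deviations cancel within each group, so these r values are not independent, and they were not tested. The main fit did not use the pairing, and a fit with the number as a block was an alternative. In 10 simulations with 200 changed genes among 17687, 15.4% of changes of 1 and 75.0% of changes of 2 on the log2 scale were recovered. In the data 21.4% of genes passed. The Benjamini-Hochberg cutoff depends on the share of changed genes, so these recovery rates need not hold for the comparison itself.

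The members and lists were chosen with earlier results of these data known. Named by rule are all members, up to 4 called genes per related list by p (else 2), 2 per marker list, the receptors of called members, and the 3 genes most correlated with the member of largest called difference. Further genes are given with values of the main fit only and are not among the named genes counted under the alternatives.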

Additional observations from a re-analysis of the deposited data

How the results depend on the processing

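Under 16 alternatives the 10 neuropeptide genes gave 152 tested differences, of which 130 kept their direction and their side of the threshold, 4 lost a call (GAL, given above), 3 gained one in the same direction and 15 changed direction without having been called before, of which 3 (TAC1, SST and CARTPT, scaled to the hybridization controls) were called after the change; the other named genes gave 442, with 384 kept. With the replicate number as a block, CALCB (-2.09, adjusted p = 0.000276) and GAL (0.78, 0.0267) stayed called, processing genes moved to 2 higher and 5 lower, and regulators, within 1.5 times, to 9 higher and 5 lower. Without the dimmest tercile 2 of the 10 neuropeptide genes, NPY and GAL, were tested. CALCB was among the genes left out, so the 0 called lower there follows from the filter. On that setting 1 receptor was called higher. Scaling to the hybridization controls, which raised the median gene to 0.88, gave 7 higher neuropeptide genes, 19 higher receptors, 26 higher and 1 lower other peptide genes, 8 higher and 1 lower processing genes, and 22 higher and 0 lower regulators. It turned the sign of VIP (0.34), TAC1 (0.75), SST (0.84), CARTPT (0.76), NTS (0.47), SSTR3 (0.41), UCN3 (0.16), PRIMA1 (0.48), CDH19 (0.58), ERBB3 (0.55), THY1 (0.077), GALR1 (0.85) and CALCRL (0.87), all by its added constant. Centring on the negative control median gave 1 higher receptor and 1 lower other peptide gene, and turned TAC1 (0.056), SST (0.15), CARTPT (0.068), GALR1 (0.17) and CALCRL (0.18). Quantile normalization turned SST (0.0058), GALR1 (0.036) and CALCRL (0.051), and removal of the brightness trend GALR1 (0.027) and CALCRL (0.039). Array weights gave 1 higher receptor, 6 lower processing genes and 14 higher regulators, and turned CARTPT (0.028) and CALCRL (0.072); the trended robust prior gave 1 lower other peptide gene. Leaving out 1 array gave 0 to 1 higher neuropeptide genes and 1 lower in each case, 0 to 1 higher receptors, 1 to 4 lower other peptide genes, 1 to 3 lower processing genes, and 6 to 16 higher and 2 to 5 lower regulators. It also turned differences near 0, whose ranges were -0.13 to 0.11 for SST, -0.083 to 0.12 for ADCYAP1, -0.037 (15EN replicate 3 left out) to 0.56 for PENK, -0.38 to 0.055 for CARTPT, -0.25 to 0.20 for GALR1 and -0.22 to 0.19 for CALCRL. Apart from the scalings, the cause was not tested. Of the 10 genes, 1 lay above the negative controls' 90th percentile on all arrays of a group, 0 above their 95th and 4 above their median, so signal over background limits what the other 9 can show.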

Other observations

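The genes next to CALCB in the order of the RefSeq annotation were read out after the values of CALCB and CALCA had been seen. On the CALCA side, CYP2R1, a vitamin D hydroxylase, differed by -0.38 ± 0.20 (8.28 ± 0.06 in 15EN and 8.67 ± 0.16 in VC, SD, n = 3 each; limma adjusted p = 0.23). PDE3B, a phosphodiesterase, differed by -0.69 ± 0.23 (adjusted p = 0.0543) and PSMA1, a proteasome subunit, by -0.55 ± 0.21 (0.0916). In each of these 3 genes all 15EN arrays lay below all VC arrays, as for 16.6% of all genes. On the other side, INSC, a regulator of spindle orientation, differed by -0.36 ± 0.27 (adjusted p = 0.405) with overlapping groups. Further out on that side, C11orf58 differed by 0.39 ± 0.24 (13.80 ± 0.39 in 15EN and 13.41 ± 0.12 in VC; adjusted p = 0.312) and PLEKHA7 by 0.11 ± 0.22 (0.788), both with overlapping groups, and SOX6 was not analysed here. CALCA passed the threshold, and CYP2R1, PDE3B, PSMA1, INSC, C11orf58 and PLEKHA7 did not.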
